A study of Mus musculus with 35 samples.

Results

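The 10 genes Cdh1, Epcam, Cdh3, Krt19, Esrp1, Esrp2, Ovol1, Cdh2, Vim and Cdh11, which mark whether a carcinoma cell is built as an epithelial or as a mesenchymal cell, were followed across sorted mouse pancreatic tumor cells. The first 7 are epithelial genes and the last 3 mesenchymal. They were picked by gene symbol, 10 of the 53465 genes in the count table. Each symbol matched 1 Ensembl identifier. The rule used no measured value, but the members were chosen with earlier results of these data known.

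Epithelial cells hold to their neighbours through E-cadherin, and they lose that junction when they take on a mesenchymal form. In pancreatic ductal adenocarcinoma this transition is classically driven by TGFβ signalling, in which SMAD4 is the shared partner of the receptor-activated SMAD proteins. Repressors of the Snail and Zeb families bind E-box letters in epithelial promoters, while ESRP splicing factors and OVOL transcription factors hold the epithelial state in place.

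The cells were KC-shSmad4 lines, derived from tumors of mice carrying Ptf1a-Cre, a Rosa26 LSL-rtTA3-IRES-mKate2 allele and a Col1a1 cassette with a doxycycline-inducible, GFP-linked shRNA against Smad4. Ptf1a-Cre is active in the pancreatic epithelium, so the rtTA3 and the mKate2 marker were switched on in that lineage, and every group shared these alleles. The lines came from male cells, and the hosts were female Foxn1nu nude mice of 6 to 8 weeks, which lack T cells. Hosts received 100000 cells into the pancreas, 400000 into the spleen to reach the liver, or 250000 into the tail vein to reach the lung. By the study's design, doxycycline, which induces the shRNA, was kept on in hosts of the Smad4 off state and withdrawn 4, 5 or 6 weeks after injection, in that order of organs, for the Smad4 on state. Tumor cells were sorted as mKate2-positive and DAPI-negative at day 7 or day 14 of withdrawal. The day 7 groups held 3 libraries labelled off and 2 labelled on in pancreas, 2 and 3 in liver, and 4 and 2 in lung. The day 14 groups held 2 and 3 in pancreas, 3 and 3 in liver, and 4 and 4 in lung. Organ, injection route, cell number and weeks of growth cannot be told apart. Which line each library came from is not stated in the labels.

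The targeted gene went against the labels. Smad4 lay between 69.9 and 143 counts per 1000000 of the scaled library total (CPM; median 103) in the 18 libraries labelled off and between 14.8 and 22.4 CPM (median 17.7) in the 17 labelled on, a log2 fold change of -2.53 ± 0.0776 (SE; adjusted P = 2.13e-21). The groups did not overlap, and the order was the opposite of that design. Whether the labels were exchanged was not tested, and groups were kept as labelled. All directions below are therefore those of the libraries labelled Smad4 on relative to those labelled off, and the higher Smad4 mRNA was in the libraries labelled off. Library totals ran from 11.9 to 43.6 M counts, with a median of 19.4 M. One library, liver day 7 labelled off replicate 2, was sequenced as paired ends and stood apart. Its genes correlated at a median of 0.944 with the 10 pancreas libraries, 0.868 with the 14 lung libraries and 0.831 with the other 10 liver libraries. Its Cdh1 level was 140.1 CPM against 616 to 1595 CPM in the other liver libraries, and the members' label, interaction and organ results that rest on it are given with and without it. The mitochondrial gene mt-Co3 had counts in 10 of the 35 libraries, none of them from pancreas.

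Promoter windows were at hand for 2 of the 10 members, Epcam and Vim, and the promoters of the other members were not searched. Epcam has letters there that bear on the Snail and Zeb repressors, and they are shown for that reason. The 250 bases before its annotated start, at chr17:87635729-87635978 on the plus strand of GRCm38.p6 in RefSeq, read as follows, with capitals marking every match to the letters searched.
Epcam: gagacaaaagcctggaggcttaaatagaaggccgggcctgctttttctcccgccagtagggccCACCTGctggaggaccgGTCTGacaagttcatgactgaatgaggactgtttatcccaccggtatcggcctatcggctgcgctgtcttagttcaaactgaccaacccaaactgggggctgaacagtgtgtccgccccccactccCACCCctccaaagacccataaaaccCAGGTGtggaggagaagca
The E-box CAGGTG is present on both strands, at -187 as CACCTG and at -19 as CAGGTG, counted from the start. The SMAD binding letters CAGAC appear on the minus strand at -170, and the KLF core CACCC on the plus strand at -44. The RUNX core TGTGGT was not found in this window. Among 32851 promoter windows of the same length, on both strands, 17.2% held CAGGTG, 42.2% CAGAC, 52% CACCC and 14% TGTGGT. A match is a description of letters and not of binding. The window was 56.4% G and C, and the median of all windows was 52.4%.

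On GRCm38, Cdh1 (ENSMUSG00000000303) lies at chr8:106603351-106670246, Cdh3 (ENSMUSG00000061048) at chr8:106510891-106557297 and Esrp2 (ENSMUSG00000084128) at chr8:106130319-106136974, with Cdh11 (ENSMUSG00000031673) on the same chromosome at chr8:102632095-102785642. Epcam (ENSMUSG00000045394) lies at chr17:87635979-87651106, Krt19 (ENSMUSG00000020911) at chr11:100140810-100148665 and Vim (ENSMUSG00000026728) at chr2:13573927-13582826. Esrp1 (ENSMUSG00000040728) lies at chr4:11331933-11386783 and Ovol1 (ENSMUSG00000024922) at chr19:5549137-5560575, and Cdh2 is ENSMUSG00000024304.

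Per kilobase of the length given in the count table, the median over all 35 libraries was highest for Krt19, the acidic keratin of ductal cells, at 1026 CPM per kb. Vim, the intermediate filament protein of mesenchymal cells, followed at 727 CPM per kb. Cdh1, which encodes E-cadherin, stood at 159 and Epcam, a homophilic epithelial adhesion protein, at 116 CPM per kb. The order of the first pair depended on the organ: in pancreas the medians were 966 CPM per kb for Vim and 550.1 for Krt19, and in liver 591 and 1895. Cdh2 (N-cadherin) stood at 11.5, Esrp2 at 5.77 and Cdh3 (P-cadherin) at 1.95 CPM per kb. Esrp1 and Cdh11 both stood at 0.612 and Ovol1 at 0.205 CPM per kb. Ovol1 was at or under 3 counts in 8 libraries, 6 of the 10 from pancreas and 2 of the 14 from lung.

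**Figure D1:**
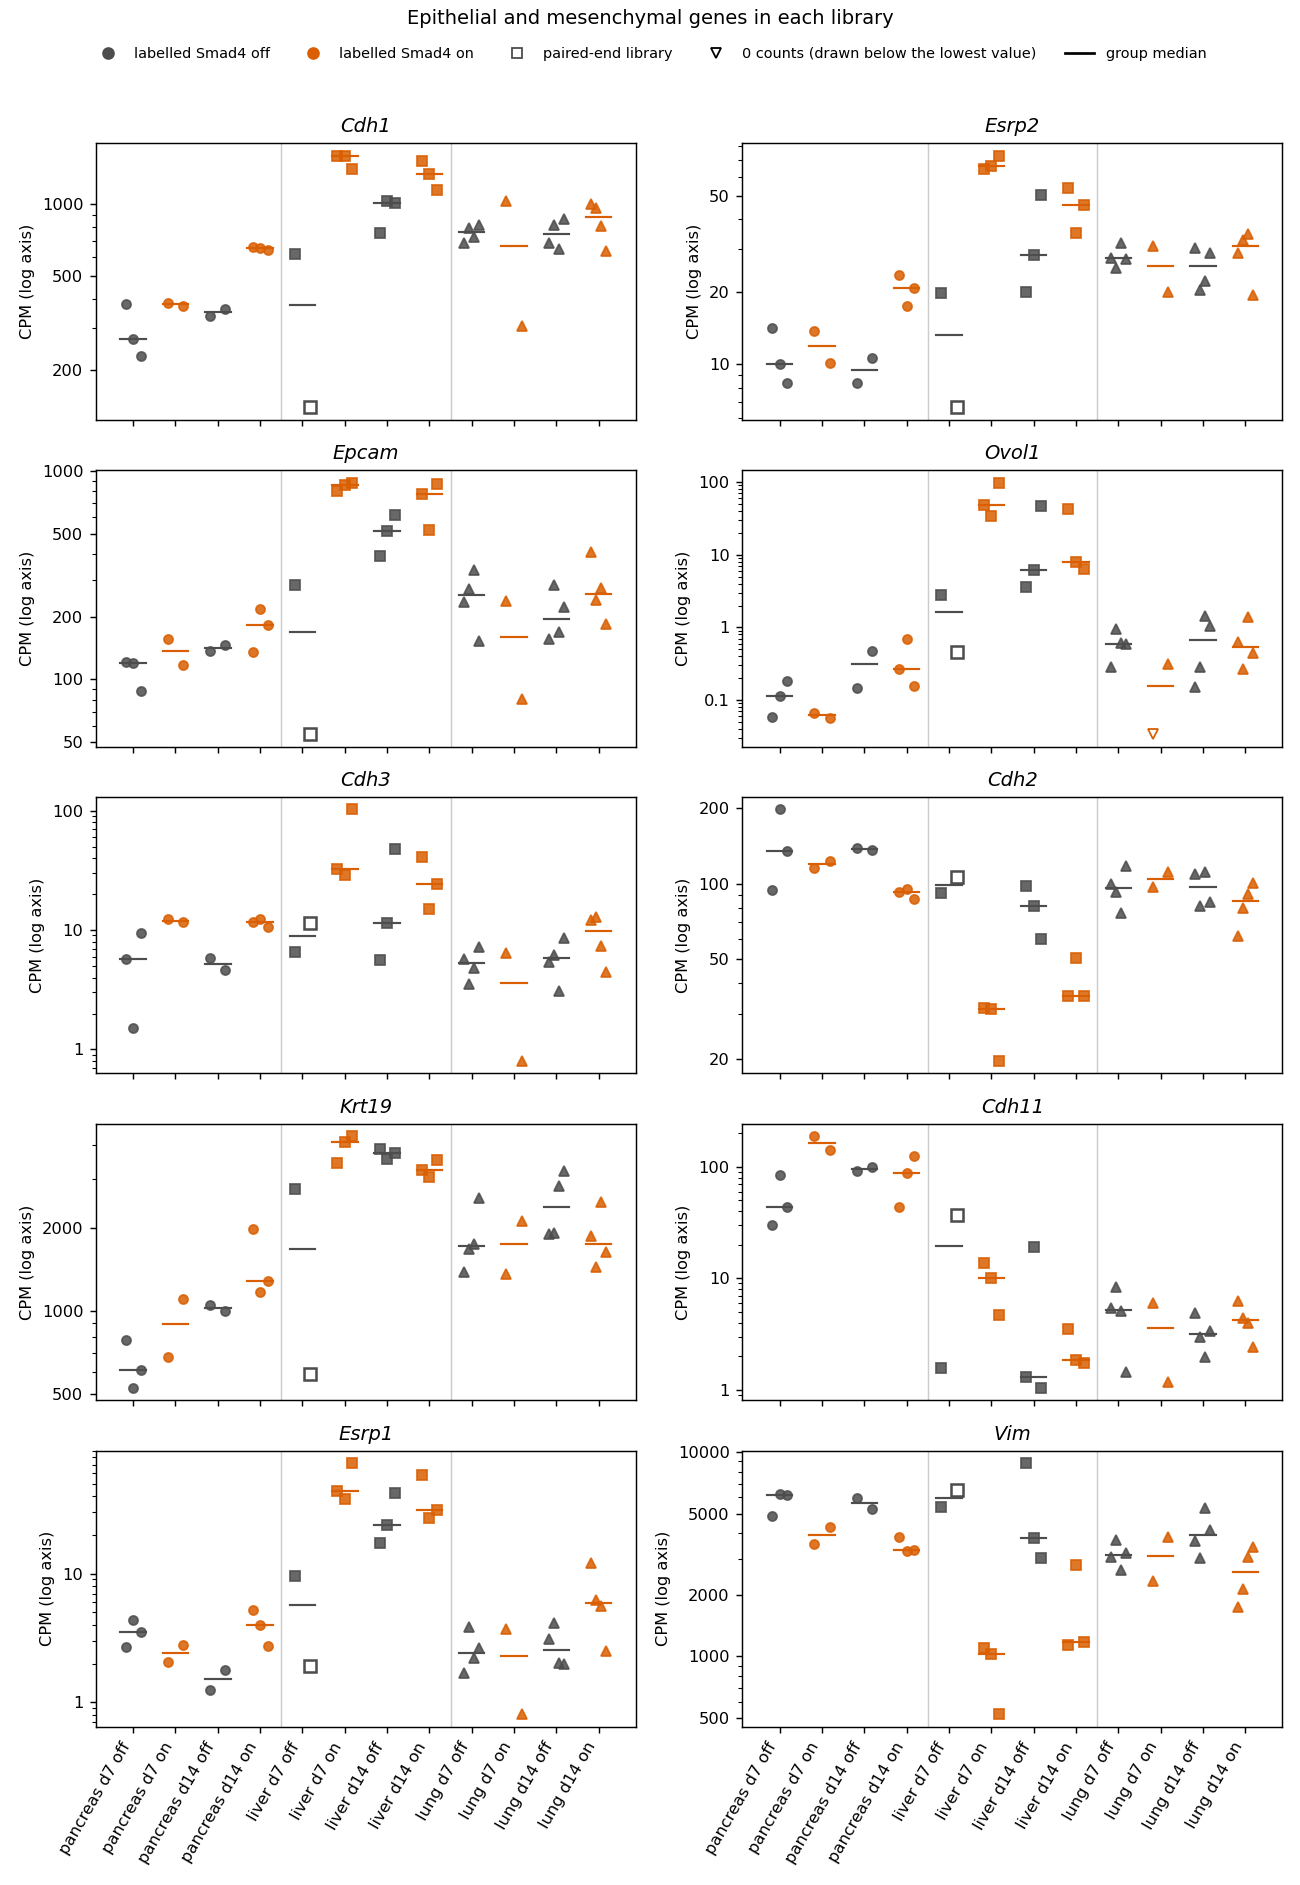
Level of each of the 10 genes in every library, in CPM on a log axis, by organ, day and Smad4 label. Points are libraries, bars are group medians, the open square is the paired-end library and the open triangle a count of 0. Ovol1 lies between 2.83 and 98.2 CPM in liver libraries other than the paired-end one and at 1.42 CPM or less in every pancreas and lung library.

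In the pancreas at day 14, the cadherins shifted in opposite directions between the labels. Cdh1 measured 339.5 and 362 CPM in the libraries labelled off and 658, 651 and 639 CPM in those labelled on. The groups did not overlap, and the log2 fold change was 0.91 ± 0.0850 (adjusted P = 0.00116), just under the 2-fold threshold of a call. Cdh2 measured 139 and 137 CPM labelled off and 92.4, 95.6 and 87.0 CPM labelled on, and it fell by 0.57 ± 0.0778 on the log2 scale (adjusted P = 0.00383). Vim fell by 0.66 ± 0.105 (adjusted P = 0.00656), from 5952 and 5259 CPM to 3837, 3278 and 3326 CPM. Both mesenchymal genes lay lower in every library labelled on. In these bulk samples, fewer cells of a type and less RNA per cell cannot be told apart.

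Calls needed an adjusted P under 0.05 over all genes tested and a change over 2-fold, and 3 of the 9 members tested in the pancreas at day 14 met both, all 3 higher, against 4.64% of all genes in either direction and 3.39% higher. Cdh3, the P-cadherin gene, rose by 1.17 ± 0.187 (adjusted P = 0.00684), from 5.83 and 4.60 CPM to 11.6, 12.5 and 10.6 CPM. Esrp2, one of the paired epithelial splicing regulators, rose by 1.13 ± 0.181 (adjusted P = 0.00692), from 8.38 and 10.6 CPM to 23.5, 17.5 and 20.7 CPM. For neither gene did the groups overlap. Esrp1, its paralog, rose by 1.39 ± 0.363 (adjusted P = 0.0422), from 1.26 and 1.79 CPM to 5.17, 3.98 and 2.72 CPM. In a single fit of all 12 groups, which share 1 estimate of the spread, 0 of the 3 were called. Cdh3 was lost without either library labelled off (adjusted P = 0.0516 and 0.0868), and Esrp1 without either of those or without on replicate 2. Esrp2 was lost without off replicate 1, when its log2 fold change was 0.95. At any fold, 6 of the 9 passed, against 12.9% of all genes: Cdh1, Cdh3, Esrp1 and Esrp2 higher, against 6.6% of all genes, and Cdh2 and Vim lower, against 6.3%. Epcam (log2 fold change 0.36, adjusted P = 0.293), Krt19 (0.55, adjusted P = 0.193) and Cdh11 (-0.15, adjusted P = 0.877) did not pass. Groups did not overlap for 7 of the 10 members, 5 higher and 2 lower, and for 47.2% of all genes. Library totals also separated the labels here, at 28557500 and 32195800 counts labelled off and 14255700, 12555800 and 12200200 labelled on. The part of depth in these calls was not tested. Other marker sums were also higher in the libraries labelled on, without overlap, and their part in these calls was not tested. Ductal tumor markers, a list that includes Krt19 and Epcam, summed to 4707 and 4335 CPM labelled off and to 7555, 5426 and 5283 CPM labelled on. Leukocyte markers summed to 158 and 243 CPM labelled off and to 267, 289 and 270.0 CPM labelled on. Lung epithelial markers summed to 19.6 and 21.6 CPM labelled off and to 32.6, 65.7 and 56.3 CPM labelled on. In each label, 3 of the 8 genes of that list were above 3 counts in at least 1 pancreas library. Ovol1 was too low to be tested in pancreas on either day.

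In the pancreas at day 7, edgeR called 0 of 9 members and 1.33% of all genes, and DESeq2 called 0 members. An unadjusted P under 0.05 was reached by 2 members and by 23.1% of all genes. The 2 were Cdh11 and Vim. Cdh11, a cadherin of fibroblasts and osteoblasts, measured 30.4, 84.4 and 44.1 CPM labelled off and 188 and 141 CPM labelled on, a log2 fold change of 1.65 ± 0.433 (adjusted P = 0.112). The summed level of 8 fibroblast markers moved the same way, from 1739, 2562 and 1620.4 CPM to 3925 and 3948 CPM, and its part in this difference was not tested. Vim measured 4874, 6260.0 and 6135 CPM labelled off and 3566 and 4294 CPM labelled on (log2 fold change -0.54, adjusted P = 0.138). Cdh3 measured 5.76, 1.50 and 9.35 CPM labelled off and 12.4 and 11.6 CPM labelled on (log2 fold change 1.13). For Cdh11, Vim and Cdh3 the groups did not overlap, and 43.3% of all genes tested in this comparison did not overlap either.

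The largest estimated differences between labels were in the liver at day 7, and they rest on 2 libraries labelled off that were far apart. Vim measured 5386 and 6533 CPM labelled off and 1100.1, 1028 and 520.4 CPM labelled on, a log2 fold change of -2.83 ± 0.417 (adjusted P = 0.0562). Cdh2 measured 92.1 and 106 CPM labelled off and 31.9, 31.7 and 19.6 CPM labelled on (log2 fold change -1.91 ± 0.270, adjusted P = 0.0562). For these mesenchymal genes the off libraries were alike and lay above all 3 on libraries. Ovol1, a zinc-finger repressor of mesenchymal genes, measured 2.83 and 0.454 CPM labelled off and 48.9, 34.6 and 98.2 CPM labelled on (log2 fold change 5.06 ± 0.996, adjusted P = 0.0689). Cdh1 measured 616 CPM in off replicate 1 and 140.1 CPM in the paired-end library, against 1595, 1591 and 1404 CPM labelled on (log2 fold change 1.93 ± 0.670, adjusted P = 0.148). Epcam measured 282 and 54.6 CPM labelled off and 799, 854 and 879.5 CPM labelled on (2.23, adjusted P = 0.132). These 3 epithelial genes lay higher in every library labelled on, but their off libraries differed from each other by several fold, with the paired-end library lower. Esrp1 measured 9.56 and 1.90 CPM labelled off against 43.5, 38.0 and 72.3 CPM labelled on (3.05 ± 0.788, adjusted P = 0.0929). Esrp2 measured 19.8 and 6.65 CPM against 64.3, 66.5 and 73.1 CPM (2.27 ± 0.507, adjusted P = 0.0792). Cdh3 had the opposite order in the off libraries, with 6.55 CPM and 11.4 CPM in the paired-end one, against 32.4, 29.0 and 102 CPM labelled on (2.52, adjusted P = 0.103). Krt19 measured 2758 and 587 CPM labelled off and 3441, 4089 and 4297 CPM labelled on (1.14, adjusted P = 0.352).

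In the liver at day 7 DESeq2 called 8 of 10 members, and the share of all genes it called is not given. In a single fit of all 12 groups, which share 1 estimate of the spread, edgeR called 9 members, also without a share of all genes. In the fit of this organ and day alone edgeR called 0 members, against 0.444% of all genes. An unadjusted P under 0.05 was reached by 8 members and by 27.1% of all genes. Without the paired-end library 1 library labelled off remained and was assumed to vary like those labelled on, so effect sizes alone are given here. The log2 fold changes were 1.21 for Cdh1, 1.48 for Epcam, 2.94 for Cdh3, 2.31 for Esrp1 and 1.67 for Esrp2. They were 4.30 for Ovol1, 0.41 for Krt19, -1.83 for Cdh2 and -2.71 for Vim. Without off replicate 1 instead, they were 7.03 for Ovol1 and 3.43 for Cdh1. Cdh11 turned with the paired-end library: its log2 fold change was -1.09 (adjusted P = 0.621) with that library and 2.50 without it. Groups did not overlap for 9 of the 10 members, the exception being Cdh11, and for 45.9% of all genes.

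**Figure D2:**
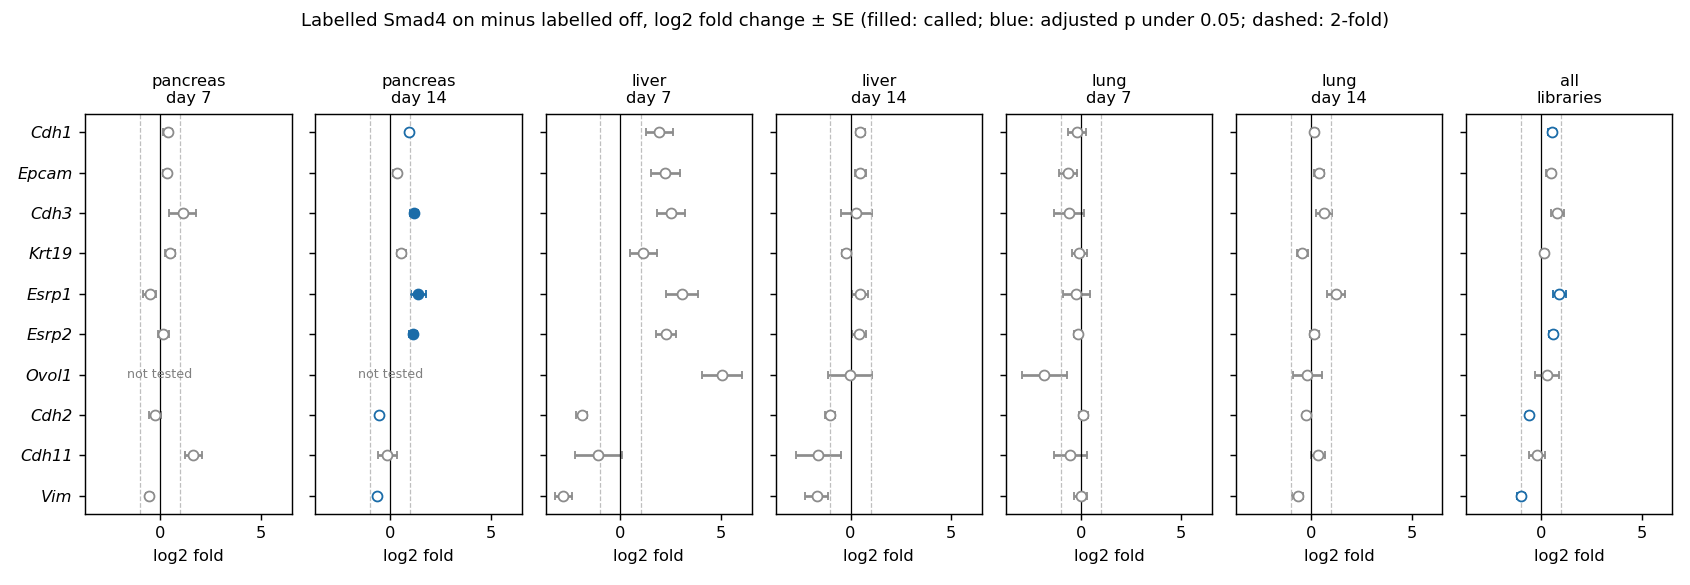
Log2 fold change of each member, libraries labelled on minus labelled off, with standard errors, in the 6 organ and day comparisons and over all libraries. Filled points were called, blue points had an adjusted P under 0.05 and dashed lines mark 2-fold. Calls are seen in the pancreas at day 14, for Cdh3, Esrp1 and Esrp2.

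In the liver at day 14, by edgeR, 0 of 10 members and 0% of all genes were called, DESeq2 called 0 members, and Cdh2 and Vim alone had an unadjusted P under 0.05, as did 9.68% of all genes. Cdh2 measured 98.2, 81.7 and 59.9 CPM labelled off and 35.7, 50.6 and 35.5 CPM labelled on (log2 fold change -1.02 ± 0.257, adjusted P = 0.357). Vim measured 8837, 3814 and 3044 CPM labelled off and 1136, 2803 and 1182 CPM labelled on (-1.67 ± 0.573, adjusted P = 0.436). In the single edgeR fit of all 12 groups Vim alone of the members was called (-1.62, adjusted P = 0.0237), without a share of all genes. Groups did not overlap for 4 of the 10 members and for 15% of all genes, and Cdh2 and Vim were among the 4. Cdh1 measured 759, 1029 and 1007 CPM against 1513, 1335 and 1149.6 CPM (0.48), higher in every library labelled on. Krt19, the other epithelial gene of the 4, lay the opposite way, with 3875, 3567 and 3724 CPM labelled off and 3236, 3048 and 3515 CPM labelled on (-0.23, adjusted P = 0.801). Ovol1 spread widely within both labels, from 3.63 to 46.8 CPM labelled off and from 6.39 to 42.2 CPM labelled on.

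In the lung no member passed the test on either day. At day 7 edgeR called 0 of 10 members, 0 had an unadjusted P under 0.05 against 5.22% of all genes, DESeq2 called 0, and 0% of all genes were called. Cdh1 measured 687, 795, 729 and 813 CPM labelled off and 1027 and 307 CPM labelled on, so the 2 libraries labelled on lay on either side of the others. Epcam (238 and 80.8 CPM) and Cdh3 (6.45 and 0.804 CPM) had the same order in those libraries. At day 14 edgeR called 0 of 10 members and 0.0271% of all genes, and DESeq2 called 0. Esrp1 and Vim alone had an unadjusted P under 0.05, as did 10.1% of all genes. Esrp1 measured 3.08, 4.12, 2.01 and 1.98 CPM labelled off and 12.1, 6.21, 5.61 and 2.49 CPM labelled on (log2 fold change 1.24 ± 0.456, adjusted P = 0.397). Vim measured 3686, 3029, 5346 and 4172 CPM labelled off and 1745, 2139, 3064 and 3449.7 CPM labelled on (-0.65 ± 0.283, adjusted P = 0.491). For all 10 members the groups overlapped on both days, while 11.7% of all genes at day 7 and 5.71% at day 14 did not overlap. The day 14 libraries of the same replicate number deviated together. Within these 4 pairs Vim was lower and Esrp1 higher in the library labelled on in all 4. No share of all genes is given beside that, and these pairs cannot be told apart from the split by mt-Co3 counts. With the replicate number as a block the adjusted P values were 0.0810 for Vim (-0.67 ± 0.164) and 0.117 for Esrp1 (1.09 ± 0.305), and 0 members were called.

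Over all 35 libraries, with organ and day as strata, both main mesenchymal genes were lower and 3 epithelial genes higher in the libraries labelled on, each by 2-fold or less. Vim had a log2 fold change of -0.999 ± 0.212 (adjusted P = 0.00146), at the edge of the 2-fold threshold, and Cdh2 fell by 0.58 ± 0.143 (adjusted P = 0.00447). Cdh1 rose by 0.55 ± 0.186 (adjusted P = 0.0350), Esrp1 by 0.91 ± 0.318 (adjusted P = 0.0408) and Esrp2 by 0.58 ± 0.195 (adjusted P = 0.0334). These 5 of 10 compare with 19.8% of all genes at any fold, 10.1% higher and 9.64% lower. By edgeR 0 members were past 2-fold, against 4.84% of all genes, while DESeq2 called Vim. An unadjusted P under 0.05 was reached by 7 members and by 32.3% of all genes. Epcam (0.48, adjusted P = 0.133), Cdh3 (0.82, adjusted P = 0.0778), Krt19 (0.16, adjusted P = 0.571), Ovol1 (0.30, adjusted P = 0.783) and Cdh11 (-0.19, adjusted P = 0.804) did not pass. Without the paired-end library Cdh1 (0.41, adjusted P = 0.0319), Esrp2 (0.44, adjusted P = 0.0447), Cdh2 (-0.52, adjusted P = 0.00727) and Vim (-0.92, adjusted P = 0.00178) still passed at any fold, and Esrp1 (0.73, adjusted P = 0.0644) did not. With the replicate number as a block, which may mark pairs in the lung at day 14 alone, the 3 epithelial genes no longer passed (adjusted P = 0.155 for Cdh1, 0.115 for Esrp1 and 0.116 for Esrp2). Cdh2 (adjusted P = 0.0288) and Vim (adjusted P = 0.0105) still passed.

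The balance of the programs can be read from the ratio of Cdh1 to Vim, each per kilobase. In pancreas the ratio ran from 0.0388 to 0.0807 (median 0.0592) in the libraries labelled off and from 0.0904 to 0.206 (median 0.178) in those labelled on. In liver it ran from 0.0222 to 0.343 (median 0.119) labelled off, or from 0.0891 without the paired-end library, and from 0.494 to 2.80 (median 1.44) labelled on. In both organs, over both days, the labels did not overlap, and no ratio of other genes is given beside it. In lung it ran from 0.126 to 0.286 (median 0.226) labelled off and from 0.0829 to 0.595 (median 0.363) labelled on, and the labels overlapped.

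**Figure D3:**
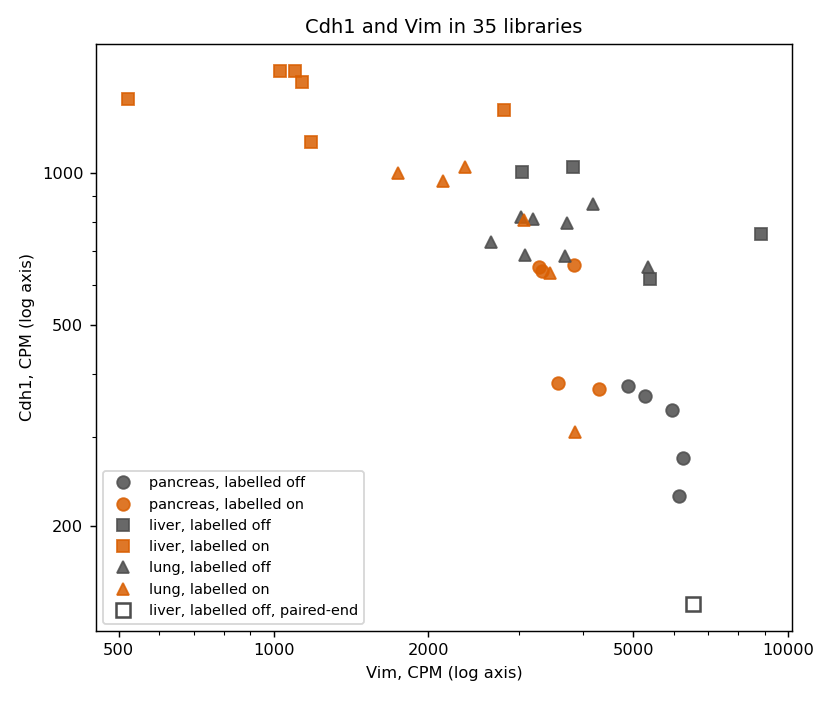
Cdh1 against Vim in each of the 35 libraries, both in CPM on log axes, with organ and Smad4 label marked. The liver libraries labelled on lie at the Cdh1-high, Vim-low corner, with Cdh1 from 1149.6 to 1595 CPM and Vim from 520.4 to 2803 CPM.

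Whether the label difference itself was larger in liver than in lung was tested as an interaction. At day 7, 3 of 10 members were called, against 1.86% of all genes: Ovol1 (liver minus lung response 6.91 ± 1.42, adjusted P = 0.0461), Cdh2 (-1.99 ± 0.334, adjusted P = 0.0372) and Vim (-2.77 ± 0.502, adjusted P = 0.0386). Their estimates kept their size without the paired-end library, at 6.13, -1.93 and -2.67, but the adjusted P values were 0.0784, 0.0763 and 0.0784, and 0 members were called. Leaving out any 1 of 7 further libraries of the 11 fitted also left 0 calls. At day 14 edgeR called 0 of 10 members and 0% of all genes, DESeq2 called 0, and Cdh2 alone had an unadjusted P under 0.05, with a difference of -0.79, against 3.01% of all genes.

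Across organs, the epithelial genes were higher in the liver than in the pancreas. In the libraries labelled on all 10 members were called, against 22.2% of all genes. Ovol1 ran from 0.0565 to 0.689 CPM (median 0.155) in pancreas and from 6.39 to 98.2 CPM (median 38.4) in liver, a log2 fold change of 7.19 ± 0.960 (adjusted P = 2.66e-05). Pancreas libraries at or under 3 counts make the size of that change uncertain. Esrp1 ran from 2.06 to 5.17 CPM in pancreas and from 27.2 to 72.3 CPM in liver (3.87 ± 0.514, adjusted P = 2.54e-05). Neither gene's organs overlapped, and no share of all genes without overlap is given for this comparison. Epcam rose by 2.31 ± 0.300, Cdh3 by 1.76 ± 0.546, Esrp2 by 1.72 ± 0.248, Krt19 by 1.55 ± 0.242 and Cdh1 by 1.45 ± 0.254. Cdh2 fell by 1.61 ± 0.196 and Vim by 1.54 ± 0.319. Cdh11 ran from 44.1 to 188 CPM in pancreas and from 1.72 to 13.8 CPM in liver (-4.55 ± 0.498, adjusted P = 5.32e-06).

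In the libraries labelled off, 6 of 10 members were called between liver and pancreas, against 8.68% of all genes. Higher in liver were Ovol1 (5.25 ± 1.01, adjusted P = 0.00535), Esrp1 (2.56 ± 0.626, adjusted P = 0.0141), Krt19 (1.66 ± 0.332, adjusted P = 0.00627), Epcam (1.41 ± 0.412, adjusted P = 0.0306) and Esrp2 (1.14 ± 0.350, adjusted P = 0.0385). Cdh11 was lower (-2.67 ± 0.828, adjusted P = 0.0391). Vim did not pass in these libraries, at 4874 to 6260.0 CPM in pancreas and 3044 to 8837 CPM in liver (-0.10 ± 0.260). Without the paired-end library 7 were called, among them Cdh1 (1.36, adjusted P = 3.44e-05), and 15.3% of all genes were called in that fit. Epcam, Esrp2 and Cdh11 each were called in 11 of the 18 fits that left out 1 library, Esrp1 in 16, and Ovol1 and Krt19 in all 18. The lowest estimate of Esrp2 was 0.80, without liver day 14 off replicate 3. Whether these organ differences depended on the label was not tested. The organ comparisons within a label share libraries with each other, and their results are not independent.

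Between lung and pancreas, 4 of 10 members were called in the libraries labelled off, against 18.4% of all genes. Cdh1 was 1.18 ± 0.296 higher in lung (adjusted P = 0.00594), Esrp2 1.29 ± 0.313 (adjusted P = 0.00470) and Krt19 1.36 ± 0.302 (adjusted P = 0.00265), on the log2 scale. Cdh11 was lower by 4.20 ± 0.740, its adjusted P being 0.000524. In the libraries labelled on, Cdh11 alone of the 10 was called (-4.64 ± 0.504, adjusted P = 1.70e-05), against 13.6% of all genes. Krt19 there ran from 678 to 1983 CPM in pancreas and from 1363 to 2489 CPM in lung (0.55, adjusted P = 0.0852).

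Between liver and lung, 2 of 10 members were called in the libraries labelled off, against 3.95% of all genes. They were Esrp1 (2.70 ± 0.510, adjusted P = 0.00504) and Ovol1 (3.48 ± 0.797, adjusted P = 0.0166), both higher in liver. Without the paired-end library both were still called (3.12 and 3.98), against 4.18% of all genes. The mesenchymal members Vim (0.63, adjusted P = 0.117) and Cdh11 (1.53, adjusted P = 0.219) were estimated higher in liver too, without a call. Cdh2 was estimated slightly lower (-0.12). Without the paired-end library these 3 estimates were 0.52, 0.29 and -0.21. In the libraries labelled on, 8 of 10 were called, against 10.3% of all genes. Ovol1 (6.03 ± 0.814), Esrp1 (3.32 ± 0.474), Cdh3 (2.43 ± 0.551), Epcam (1.80 ± 0.282), Esrp2 (1.03 ± 0.228) and Krt19 (1.00 ± 0.224) were higher in liver. Cdh2 fell by 1.42 ± 0.189 and Vim by 1.12 ± 0.305. Esrp2, Krt19 and Vim sat near the 2-fold threshold and were called in 10, 9 and 15 of the 17 fits that left out 1 library.

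**Figure D4:**
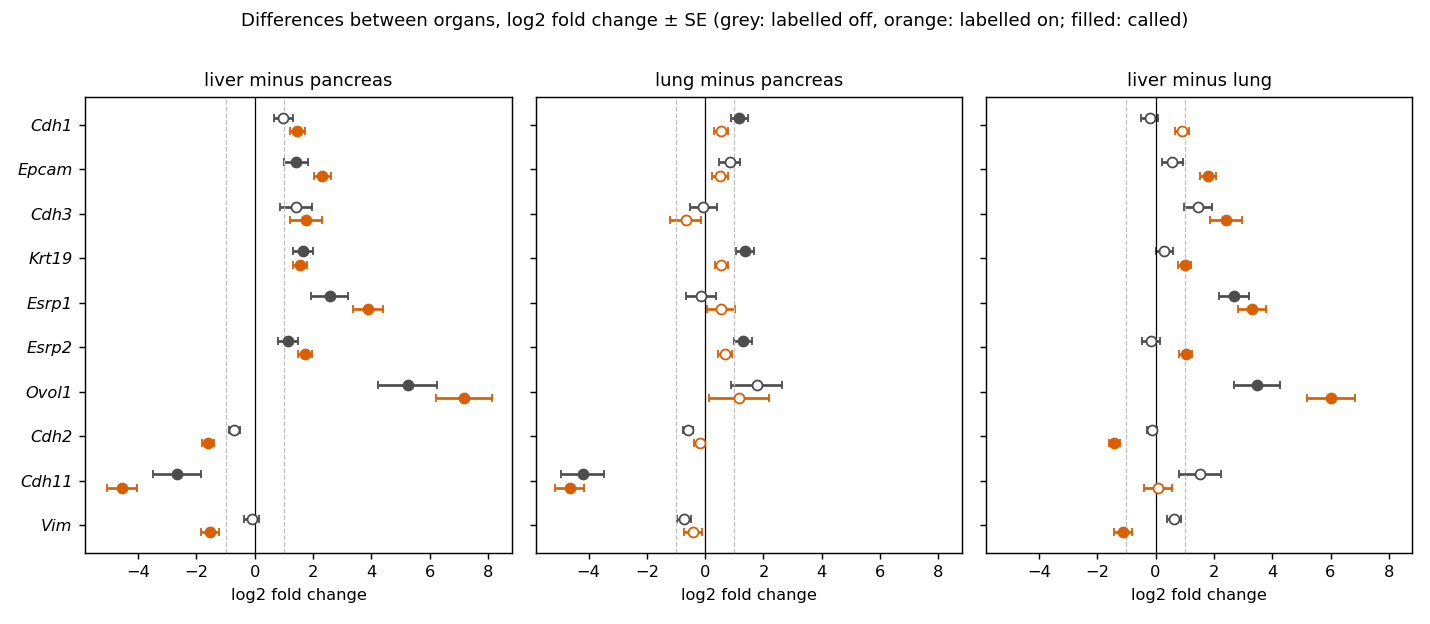
Log2 fold change of each member between organs, with standard errors, in libraries labelled off (grey) and labelled on (orange). Filled points were called. Among libraries labelled on, Ovol1 is 7.19 and Cdh11 -4.55 between liver and pancreas.

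Between day 14 and day 7, edgeR called 0 of 10 members in either label, DESeq2 called 0, and 0% of all genes were called. In each label 1 member had an unadjusted P under 0.05, Krt19 labelled off (log2 fold change 0.68, against 7.46% of all genes) and Cdh11 labelled on (-0.99, against 7.51%).

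Cdh11 levels moved with those of fibroblast genes. The summed level of 8 fibroblast markers (Dcn, Lum, Pdgfra, Pdgfrb, Dpt, Col6a3, Fap and Col14a1) ran from 1620.4 to 2562 CPM in pancreas libraries labelled off and from 1406 to 3948 CPM in those labelled on. In liver it ran from 70.0 to 469 CPM labelled off without the paired-end library, which stood at 2817 CPM, and from 172 to 522 CPM labelled on. In lung it ran from 60.8 to 287 CPM labelled off and from 40.0 to 331 CPM labelled on. None of the 8 was at 0 in any library, although the sort took mKate2-positive cells. Over the 35 libraries, on the log2 scale, Cdh11 correlated with this sum at r = 0.924, Cdh2 at 0.308 and Vim at 0.227. The 8 acinar markers moved with the same organs, from 704 to 3261 CPM in pancreas, 376 CPM in the paired-end liver library and under 1 CPM in the other liver and the lung libraries, and Cdh11 correlated with them at r = 0.888. These libraries share organ and host, and the part of fibroblast or acinar RNA in the Cdh11 differences was not tested.

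**Figure D5:**
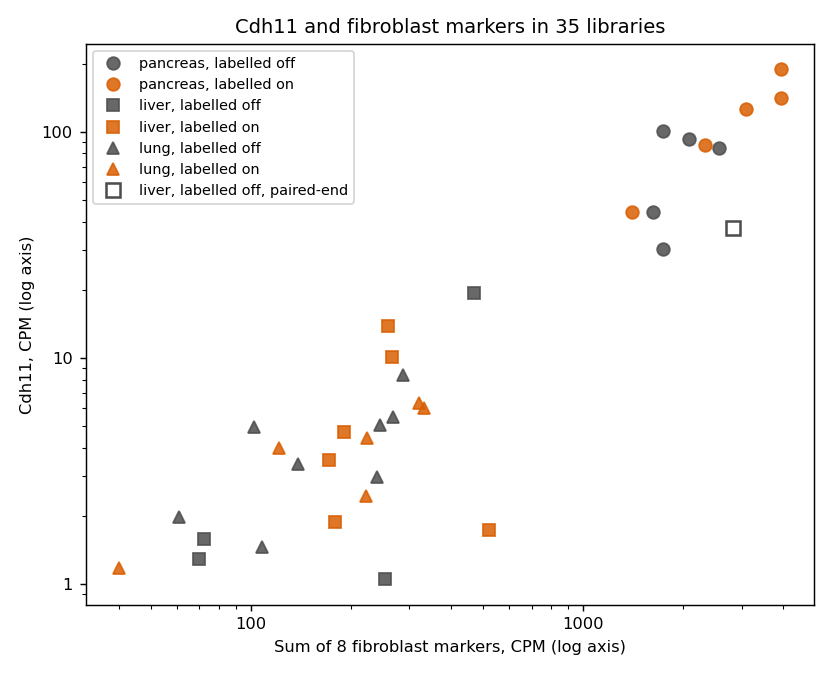
Cdh11 against the summed level of 8 fibroblast markers in each of the 35 libraries, both in CPM on log axes, with organ and label marked. Pancreas libraries and the paired-end liver library, at 37.3 CPM of Cdh11 and 2817 CPM of the markers, form the upper group.

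The other members also moved with marker sums over the 35 libraries, which share organs. With hepatocyte markers Esrp2 correlated at r = 0.898, Cdh1 at 0.828, Cdh2 at -0.798 and Vim at -0.723. Krt19 correlated with acinar markers at -0.776, and Ovol1 with the mesothelial list, which holds Krt5, at 0.874.

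The ductal tumor markers differed between organs and summed to 2622 to 7555 CPM in pancreas, 5848 to 14358 CPM in lung and 12106 to 17109 CPM in liver, where the paired-end library stood at 3963 CPM. Markers of other cells also differed between the labels in liver, and the part of any of these lists in the members' differences was not tested. Leukocyte markers summed to 66.1 to 211 CPM in liver libraries labelled off (from 129.6 CPM without the paired-end library) and to 243 to 524 CPM in those labelled on, without overlap, with Ptprc between 0.578 and 16.1 CPM in liver. Endothelial markers summed to 8.05 to 75.4 CPM labelled off (up to 72.2 CPM without that library) and to at most 12.6 CPM labelled on in liver. Hepatocyte markers in liver summed to between 1.65 and 50.0 CPM labelled off (from 17.2 CPM without that library) and between 36.9 and 145 CPM labelled on, with Alb at 16.7 CPM or less. Lung epithelial markers were higher in liver libraries labelled on (151 to 394 CPM) than off (10.2 to 122 CPM, or from 35.4 CPM without that library), but Sftpc, the defining gene of that list, was at 0.413 CPM or less in liver and between 34.0 and 306 CPM in lung. The mesothelial list reached 5115 CPM in liver, where Krt5, also a basal epithelial keratin, made up as much as 4869 CPM. Krt5 lay at 3.07 CPM or less in pancreas and at 34.1 CPM or less in lung.

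Among the members themselves, most but not all pairs of the same class moved together over the 35 libraries, which share organs and groups. On the scale of log2(CPM + 0.5), Cdh1 and Esrp2 correlated at r = 0.93 (0.71 after subtracting group means), Cdh1 and Epcam at 0.90 (0.81), and Cdh2 and Vim at 0.89 (0.77). Esrp1 and Ovol1 correlated at 0.90, but at 0.47 within groups. Cdh1 and Vim correlated at -0.74 (-0.38 within groups), and the same-class pairs Cdh11 and Vim at 0.27 (-0.11), Cdh2 and Cdh11 at 0.38 (0.11) and Cdh3 and Krt19 at 0.43 (-0.10). Among genes with a mean of at least 1 CPM, the most similar pattern to Cdh1 was that of Shtn1 (r = 0.98), to Epcam Gpa33 (0.98) and to Esrp2 Camsap3 (0.97). Aqp3 and Trim29 (both 0.97) were among the 3 genes most similar to Ovol1. Esrp1 was most similar to Rab25 (0.96), Krt19 to Misp (0.96), Cdh3 to Arhgef4 (0.86), Cdh2 to Frmd4a (0.95), Vim to Angptl2 (0.96) and Cdh11 to Dchs2 (0.96).

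The other genes of each program were read from lists of 30 further epithelial and 30 further mesenchymal genes. In the pancreas at day 14, 1 of 27 epithelial genes tested was called higher in the libraries labelled on, the protease inhibitor gene Spint2 (1.12), against 3.39% of all genes, with a median log2 fold change of 0.59 against 0.02 over all genes. Of 29 mesenchymal genes, 5 were called lower, among them the collagen-modifying enzyme Loxl2 (-1.10) and fibronectin, Fn1 (-1.25), against 1.26% of all genes, and 1 higher, with a median of -0.70. In the liver at day 7, 29 of 30 epithelial genes had a positive and all 29 mesenchymal genes a negative log2 fold change, with medians of 2.55 and -3.10 against -0.06 over all genes, but edgeR called 0 and 1 of them (Axl, a receptor tyrosine kinase, -2.66, adjusted P = 0.0477), against 0.262% of all genes lower. Without the paired-end library 1 library labelled off remained, so effect sizes alone are given. The medians were then 1.81 and -0.99 against 0.06. Of the epithelial genes 28 were positive and 2 negative, and of the mesenchymal genes 10 were positive and 19 negative. Over all libraries, 2 of 30 epithelial genes were called higher, against 2.83% of all genes, and 7 of 29 mesenchymal genes lower, against 2.01%. Without the paired-end library 0 and 5 were, against 3.72% of all genes in either direction. Among the 7 were Ncam1 at -1.95, Fn1 at -1.43 and the integrin subunit Itga5 at -1.22. Between liver and pancreas in the libraries labelled on, 25 of 30 epithelial genes were called higher, against 10.8% of all genes, and 27 of 29 mesenchymal genes lower, against 11.4%. The Zeb repressors were among the latter, Zeb1 at -2.17 and Zeb2 at -2.14, with the matrix protease Mmp2 at -4.13. Between lung and pancreas in the libraries labelled off, 16 of 30 epithelial genes were called higher, against 10.8% of all genes, and 21 of 29 mesenchymal genes lower, against 7.58%. Between liver and lung labelled off, mesenchymal genes were called higher in liver, among them Prrx1 (4.00), Fgfr1 (3.17) and Tpm2 (1.21). Without the paired-end library, 7 of 30 epithelial and 5 of 29 mesenchymal genes were called higher there and 0 of either lower. Of all genes, 4.18% were called in either direction.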

How the data were processed

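RNA was sequenced from 35 libraries of sorted tumor cells. The authors deposited raw read counts per gene with a transcript length. According to the methods and the submitters' processing notes, poly(A) RNA was sequenced as single-end reads, trimmed with Trimmomatic 0.36, aligned to GRCm38 with STAR 2.5.3a and counted with featureCounts 1.6.3. One library was sequenced as paired ends.

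Counts were tested with edgeR 4.0.16 (R 4.3.3): TMM scaling, filterByExpr (minimum count 10, minimum total 15), quasi-likelihood tests and Benjamini-Hochberg adjustment over all genes tested. A call needed an adjusted P under 0.05 and a change over 2-fold. Label comparisons were fitted within 1 organ and day, organ and day comparisons within 1 label. DESeq2 1.42.0, other filters, scalings and covariates, and the omission of each library were alternatives. Unless a share of all genes stands beside them, counts of calls under these alternatives have no background. CPM are deposited counts divided by the TMM-scaled library total and set to 1000000 per library, and 3 counts correspond to 0.0684 to 0.239 CPM. That floor covers counting error only. Named genes were the 10 members, Smad4, up to 3 genes of each further list with the lowest P, marker lists as sums, and the genes most correlated with each member. Members and lists were chosen with earlier results of these data known. Libraries are labelled as separate mice, and P values measure the spread between them. Replicate numbers did not mark pairs across a group except perhaps in the lung at day 14, where same-numbered libraries deviated together (r = 0.58 to 0.68). Those libraries also shared the presence or absence of mt-Co3 counts, so pairs and that split cannot be told apart. Replicate 3 of the liver at day 14, with mt-Co3 counts in both labels, reached r = 0.485. In simulated data with 200 genes changed 4-fold, the tests recovered 90.5% in the pancreas at day 14, 8.5% in the liver at day 7 and 2% for the day 7 interaction. Promoter windows came from RefSeq (GRCm38.p6), matched by symbol for 2 of the 10 members. An allele shared by all groups and 1 correlated gene are not reported here. The Vim window overlaps an annotated exon and is not shown.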

Additional observations from a re-analysis of the deposited data

Results flagged for a closer look

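The label response differed between liver and lung at day 7 for 3 members by a test of the difference itself. The liver response minus the lung response was 6.91 for Ovol1, -1.99 for Cdh2 and -2.77 for Vim on the log2 scale. Each rests on the 2 liver libraries labelled off, of which the paired-end library is 1, and on 2 lung libraries labelled on. Ovol1 was at 0 and 0.309 CPM in those lung libraries, so the size of its difference is uncertain. All these calls were lost without the paired-end library, without any 1 of several other libraries, and with the replicate number as a block. The 3 groups of 4 libraries, all from lung, were examined for single divergent libraries in 30 tests over the members, and 0 were found. The pancreas and liver groups, with 2 or 3 libraries each, were too small for that test.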

How the results depend on the processing

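Calls of members summed over the 6 label comparisons were 3 of 58 tests. They were 11 with DESeq2, 5 without a filter and 5 with at least 10 counts in every library, 6 without a fold threshold, 6 with mt-Co3 as a covariate, 10 from a single fit of all 12 groups, and 0 to 11 when 1 library was left out: 0 and 1 without pancreas day 14 off replicates 1 and 2, 11 and 8 without liver day 7 off replicates 1 and 2. Each of these named omissions left 1 library labelled off in its comparison, assumed to vary like those labelled on. The 6 with the covariate include the 3 unchanged calls of the pancreas at day 14, where no library had mt-Co3 counts and no covariate was fitted. For the effect over all libraries, 0 calls became 1 with DESeq2, 1 with DESeq2 size factors, 1 without a filter, 5 without a fold threshold, 1 with the covariate, 1 in the single fit, and 0 to 3 with 1 library left out, the 3 without liver day 14 off replicate 3. For the interaction, 3 calls became 7 with DESeq2, 5 with the covariate, 7 in the single fit, and 0 to 8 with 1 library left out, the 8 without liver day 7 off replicate 1 and 0 without each of 8 others of the 11 day 7 libraries fitted. Fits split by the presence of mt-Co3 counts, a property read from the counts that no label names as a batch, were added after seeing the data. With only the libraries without mt-Co3 counts, there were 12 label calls, 2 over all libraries and 7 for the interaction. Of the 12, 9 come from liver day 7 with 1 library labelled off against 2 labelled on, and the interaction had 2 arms of 1 library, each assumed to vary like the others. Fits of only the libraries with mt-Co3 counts could be made for the effect over all libraries, for the lung at day 14 and for the day 14 interaction.

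With the replicate number as a block there were 0 interaction calls, 2 in the pancreas at day 14 (Esrp1 adjusted P = 0.0542) and 23 organ calls. The numbers may pair libraries in the lung at day 14, where calls were 0 with and without the block. The 31 organ calls lay between 23 and 36 under the other settings, and the 0 day calls stayed at 0. Directions reversed for Cdh11 in the liver at day 7 (main -1.09): 0.52 with the block, 0.0296 with the covariate, 2.83 in libraries without mt-Co3 counts and 2.50 without off replicate 2, with a range of -1.99 to 2.50 over libraries left out. Its day 7 interaction (-0.50) reversed to 1.82 with the block, 2.90 in libraries without mt-Co3 counts, 3.04 without that library and 0.99 without lung on replicate 1, the lowest with a library left out being -1.42. Cdh3 over all libraries reversed to -0.19 in libraries with mt-Co3 counts. The causes were not tested. Over the 76 member results called under at least 1 setting, of 670 values under other settings 559 kept direction and side of the threshold, 27 lost and 78 gained the threshold and 6 reversed. The 92 member results never called, which include differences near 0, changed sign in 46 further values, and in 79 with 1 library left out. Depth limits Ovol1, at or under 3 counts in 8 libraries.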
